A study of Mus musculus with 3 samples.

Results

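Open chromatin regions of 900 bp or more in the mouse uterus were taken from a genome-wide list of peaks, and they numbered 518 of 12413 peaks (4.17%). The members were chosen by 2 measured values of the peak call, a width of 900 bp or more and a local background of 21 or less. The background was computed as (pileup + 1) / fold − 1, where the pileup is the authors' coverage at the highest point (the summit) of a peak and the fold is their enrichment over background. The regions covered 545 kb, which was 9.30% of all bases in peaks. They were set beside the 11858 peaks that were narrower than 900 bp and within the same background limit. Another 8 peaks were 900 bp or wider but above the background limit, and 29 narrower peaks were above it.

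The peaks came from FAIRE-seq, in which crosslinked chromatin is sheared and the DNA that phenol does not draw out with protein is sequenced, so that DNA depleted of nucleosomes is enriched. The tissue was the whole uterus of untreated wild-type C57BL/6J females aged 6 to 10 weeks, mated with fertile males and taken on gestation day 4, with blastocysts present in the uterine lumen. The series holds 3 samples of this 1 group, and nothing in it serves as a control. The growth protocol speaks of 3 mice and the design text of RNA from 4 mice. Because the peak list is not divided by sample, values have no error between mice, and tests between groups could not be made. Library depth is unknown. Epithelium, stroma, muscle, vessels and immune cells were mixed, and a region open in few cells cannot be told apart from one weakly open in many.

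Most open chromatin in mammalian cells lies at promoters and enhancers. Promoters rich in CpG dinucleotides (CpG islands) are usually unmethylated and open in most cell types, and they serve housekeeping genes and many regulators. Promoters poor in CpG are more often tied to 1 tissue. The width of an open region reflects how far from its centre chromatin is depleted of nucleosomes, together with how the peak caller joins neighbouring signal.

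The sequences at the starts of some of the genes are shown first, because base composition differed between promoters with a wide region and other promoters. Each runs from 250 bases before to 50 bases after the annotated start, 5′ to 3′ on the gene's strand, from RefSeq (GRCm38.p6), with CpG dinucleotides in capitals. Mesd (chr7:83883616-83883915, plus strand), a chaperone for receptors of the LDL receptor family, Rrbp1 (chr2:144011214-144011513, minus strand), a ribosome-binding protein of the endoplasmic reticulum, Ube2g1 (chr11:72607011-72607310, plus strand), an E2 ubiquitin-conjugating enzyme, and Stt3b (chr9:115310419-115310718, minus strand), a catalytic subunit of oligosaccharyltransferase, are the genes among the 15 widest regions whose summit fell inside the window.
Mesd: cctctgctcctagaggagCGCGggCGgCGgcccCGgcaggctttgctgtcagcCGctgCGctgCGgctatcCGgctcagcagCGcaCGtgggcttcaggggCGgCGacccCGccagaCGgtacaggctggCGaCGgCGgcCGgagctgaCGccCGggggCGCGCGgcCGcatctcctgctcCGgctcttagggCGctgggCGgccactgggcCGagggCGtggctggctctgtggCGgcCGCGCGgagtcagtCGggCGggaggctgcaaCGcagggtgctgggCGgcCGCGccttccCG
Rrbp1: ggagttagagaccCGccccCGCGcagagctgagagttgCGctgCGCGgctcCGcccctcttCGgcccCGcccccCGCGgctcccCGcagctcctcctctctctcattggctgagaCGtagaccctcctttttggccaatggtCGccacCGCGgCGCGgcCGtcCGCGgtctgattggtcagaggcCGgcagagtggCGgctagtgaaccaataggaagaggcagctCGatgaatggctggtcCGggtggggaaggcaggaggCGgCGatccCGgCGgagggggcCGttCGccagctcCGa
Ube2g1: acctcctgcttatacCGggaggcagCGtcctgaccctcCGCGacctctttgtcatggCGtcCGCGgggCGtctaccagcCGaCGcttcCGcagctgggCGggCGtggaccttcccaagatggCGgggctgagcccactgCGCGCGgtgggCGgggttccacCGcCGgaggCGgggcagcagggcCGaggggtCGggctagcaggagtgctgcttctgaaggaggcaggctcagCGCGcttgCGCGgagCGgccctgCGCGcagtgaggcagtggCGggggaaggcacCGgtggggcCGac
Stt3b: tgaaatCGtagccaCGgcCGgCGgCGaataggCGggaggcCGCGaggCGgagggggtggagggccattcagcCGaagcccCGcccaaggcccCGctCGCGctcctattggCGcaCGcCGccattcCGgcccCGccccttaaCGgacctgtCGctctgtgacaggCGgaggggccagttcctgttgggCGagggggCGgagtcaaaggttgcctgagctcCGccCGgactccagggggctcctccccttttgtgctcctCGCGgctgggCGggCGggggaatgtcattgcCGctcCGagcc
These windows held 41 CpG in Mesd, 32 in Rrbp1, 33 in Ube2g1 and 32 in Stt3b. The letters GGGCGG, a core shared by Sp and Klf factors, occurred on either strand 5 times in Mesd, 3 in Rrbp1, 2 in Ube2g1 and 6 in Stt3b.

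A further set was chosen after values were seen. Cebpb (chr2:167688665-167688964, plus strand), a transcription factor required for decidualization in mice, and Fkbp5 (chr17:28486100-28486399, minus strand), a co-chaperone of steroid receptors induced by progestins and glucocorticoids, had wide regions. Msx1 (chr5:37824536-37824835, minus strand), a homeobox factor of the receptive uterus, had a narrower peak. Pgr (chr9:8899583-8899882, plus strand), the progesterone receptor, and Acta2 (chr19:34255324-34255623, minus strand), smooth muscle actin, had no peak within 1 kb of the start.
Cebpb: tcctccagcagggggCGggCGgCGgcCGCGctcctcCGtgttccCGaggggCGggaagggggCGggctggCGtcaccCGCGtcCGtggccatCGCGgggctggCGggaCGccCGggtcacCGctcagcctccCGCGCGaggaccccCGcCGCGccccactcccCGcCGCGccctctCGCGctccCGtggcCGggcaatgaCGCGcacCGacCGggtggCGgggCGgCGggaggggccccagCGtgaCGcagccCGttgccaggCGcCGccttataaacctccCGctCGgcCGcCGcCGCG
Fkbp5: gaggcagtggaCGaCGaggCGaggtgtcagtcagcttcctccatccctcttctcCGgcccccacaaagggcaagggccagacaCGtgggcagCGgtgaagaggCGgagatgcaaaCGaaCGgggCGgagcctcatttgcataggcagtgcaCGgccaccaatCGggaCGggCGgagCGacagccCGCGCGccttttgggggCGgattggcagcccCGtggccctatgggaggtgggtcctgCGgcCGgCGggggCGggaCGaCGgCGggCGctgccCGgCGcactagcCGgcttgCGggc
Msx1: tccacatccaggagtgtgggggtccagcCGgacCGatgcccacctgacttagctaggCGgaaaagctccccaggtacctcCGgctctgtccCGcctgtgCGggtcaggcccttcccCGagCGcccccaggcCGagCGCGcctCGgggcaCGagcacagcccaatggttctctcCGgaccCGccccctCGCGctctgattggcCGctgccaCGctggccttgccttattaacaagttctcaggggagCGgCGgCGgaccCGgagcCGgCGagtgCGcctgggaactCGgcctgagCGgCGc
Pgr: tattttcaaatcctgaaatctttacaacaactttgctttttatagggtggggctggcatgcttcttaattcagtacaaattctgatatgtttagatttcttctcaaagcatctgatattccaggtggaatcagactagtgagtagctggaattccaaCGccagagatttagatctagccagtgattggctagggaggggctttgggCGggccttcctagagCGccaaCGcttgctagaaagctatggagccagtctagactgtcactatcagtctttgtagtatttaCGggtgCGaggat
Acta2: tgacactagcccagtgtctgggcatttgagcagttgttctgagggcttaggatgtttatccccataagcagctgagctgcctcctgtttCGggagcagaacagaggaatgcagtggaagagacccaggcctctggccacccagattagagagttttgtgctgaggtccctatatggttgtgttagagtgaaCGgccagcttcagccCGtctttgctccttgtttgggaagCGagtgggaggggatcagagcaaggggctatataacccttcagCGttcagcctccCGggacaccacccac
The Cebpb window held 50 CpG at a GC content of 80.7%, and the Fkbp5 window held 32 CpG at 70.7%. Msx1 held 29 CpG at 70.0%. Single windows of the classes overlapped. Klf9, with a wide region, held 28 CpG at 63.3% GC and no GGGCGG, while Il6st and Fkbp4, with narrower peaks, held 33 CpG each, and Dusp1 and Epcam, also with narrower peaks, held 31 and 11. The Pgr window held 6 CpG at 43.7% GC and the Acta2 window 6 CpG at 54.7%.

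The width and background chose the regions, so the following values describe them and are not findings. The median width was 1012 bp in wide regions (interquartile range 942 to 1111, highest 2045) and 414 bp in narrower peaks (302 to 559). The pileup had a median of 89.0 in wide regions (interquartile range 68.0 to 123, lowest 31.0, highest 188) and 54.0 in narrower peaks (39.0 to 78.0). The fold enrichment had a median of 7.07 in wide regions (5.91 to 8.82) and 5.74 in narrower peaks (4.37 to 7.74), and the highest was 12.8 in wide regions and 23.6 in narrower peaks. The background had a median of 11.9 in wide regions and 8.48 in narrower peaks. The median −log10 q-value was 42.8 in wide regions and 21.9 in narrower peaks.

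For a closer comparison, narrower peaks with a pileup of 68 to 123, the interquartile range of the wide regions, were set apart. These 3289 peaks had a median width of 530 bp, a fold of 8.38 and a background of 9.68, against a fold of 7.07 and a background of 11.9 in wide regions.

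**Figure D1:**
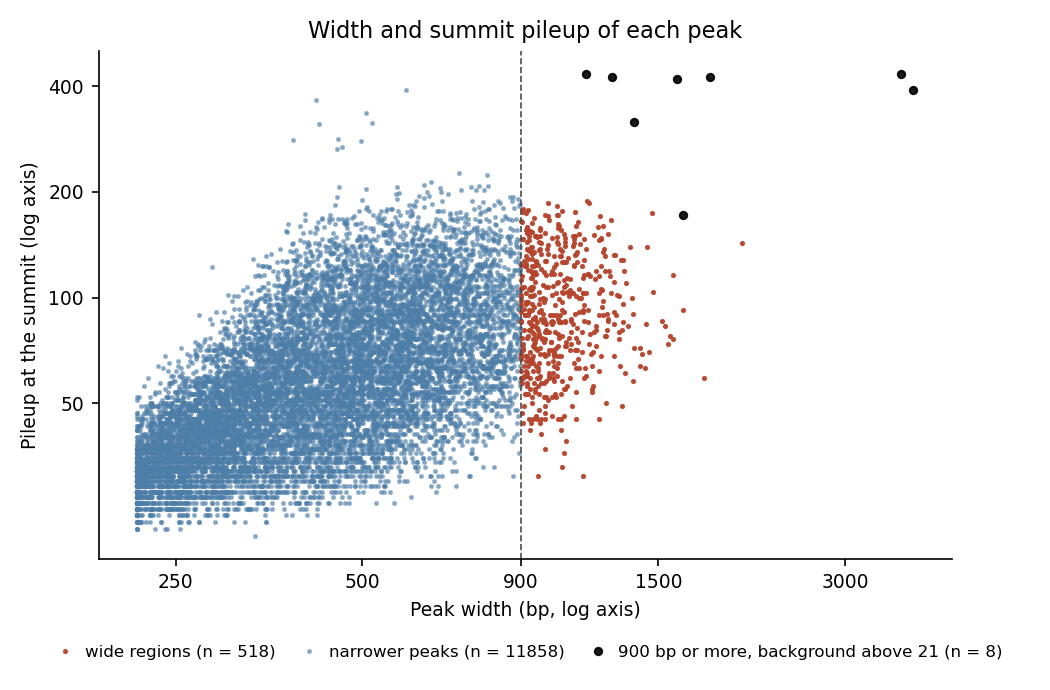
Width in bp (log axis) against pileup at the summit (log axis), with 1 point per peak, for 518 wide regions, 11858 narrower peaks and 8 wide peaks left out for their background. The dashed line is the 900 bp minimum. Wide regions span pileups of 31.0 to 188, below the highest of the narrower peaks (390).

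At the width limit, the narrowest members had 900 bp at Carhsp1, an RNA-binding protein (pileup 100), Plekhf2, an endosomal protein (112), and 9930021J03Rik (59). Just outside it, peaks of 899 bp lay at Wac (104), Tfdp1, a partner of E2F factors (117), and Ripk2, a kinase of innate immune signalling (185). The members with the highest background were at Cdk13 (20.3), Klf13 (20.1) and Cpeb2 (19.3). The 8 peaks left out for background had values of 36.6 to 214 and widths of 1148 to 3858 bp. Their fold ran from 2.03 to 11.2, and none had a summit within 1 kb of a protein-coding gene end.

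Of the 15 widest regions, 10 had their summit at the end of a protein-coding gene and 1 between genes. The other 4 were inside a protein-coding gene, beyond 1 kb from its ends. The widest was inside Cpeb2, which encodes a regulator of mRNA translation, at chr5:43232894-43234938. It was 2045 bp wide with a pileup of 143 and a fold of 7.10, and its summit was 7812 bp away from any end of a protein-coding gene. Phlpp1, a phosphatase that acts on Akt, had a region of 1778 bp with a pileup of 59 and a fold of 4.62. The region shared by Mesd and Tlnrd1 had 1642 bp (pileup 92, fold 5.78). Next came regions inside Ccdc177 (1584 bp, pileup 76, fold 5.15) and at Rrbp1 (1582 bp, pileup 116, fold 6.85).

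Dipk2a had a region of 1566 bp (fold 5.35), and Gsk3b, the kinase of the Wnt and insulin pathways, one of 1552 bp (fold 5.54). A region inside Fbxl17, an F-box protein of ubiquitin ligases, had 1535 bp (fold 5.47), and the one at Mfsd11 had 1520 bp (fold 6.14). The summit at Mfsd11 also lay inside Srsf2, 482 bp downstream of an annotated start of that gene. Cebpb had 1469 bp at chr2:167688578-167690046 (pileup 104, fold 6.27), reaching 337 bp upstream and 1131 bp downstream of the start. Ube2g1 had 1465 bp with a pileup of 174 and a fold of 9.60. Prr7 had 1448 bp inside the gene (fold 4.65), Stt3b 1435 bp (fold 7.83) and Atp2a2, the calcium pump of the sarcoplasmic and endoplasmic reticulum, 1431 bp (fold 5.85). The 1 region between genes was chr9:124256359-124257783, with 1425 bp, a pileup of 63 and a fold of 6.44.

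The 10 regions with the highest fold were 901 to 1033 bp wide. Smim14 and Ube2k shared a region of 906 bp (fold 12.8, pileup 179), and Ube2j1, like Ube2k an E2 enzyme, had 904 bp (fold 12.8, pileup 175). Adss, an enzyme of AMP synthesis, had 918 bp (fold 12.8). Ptp4a1, a phosphatase, had 1009 bp (12.7-fold), 8030462N17Rik 983 bp (12.5-fold), Dnajb1, an Hsp70 co-chaperone, 916 bp (12.3-fold), and Arpc5 with Rgl1 925 bp (12.2-fold). Btg3 (12.2-fold), Ccnyl1 (12.0-fold) and Atp1b3, a sodium pump subunit (11.6-fold), completed the 10 highest. All 10 summits lay at protein-coding gene ends. Among the low fold values were 3.60 in Kmt5a, a histone H4 lysine methyltransferase, 3.80 in both Nat8l and Shisa6, and 3.84 at Maco1. The regions of Kmt5a, Nat8l and Shisa6 were inside the gene.

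The location of the summits was not part of the rule. A gene end was either annotated end of a gene, start or finish, and a summit within 1 kb of it was counted. Protein-coding gene ends held 413 wide regions (79.7%, 95% Wilson interval 76.1 to 83.0), against 72.1% of narrower peaks (71.3 to 72.9) and 78.7% of narrower peaks of similar pileup (77.2 to 80.0). The intervals cover counting only. At 1 kb the share in wide regions was above that of all narrower peaks and within counting error of that of narrower peaks of similar pileup. Within 500 bp the order differed, with 63.7% of wide regions, 62.3% of narrower peaks and 71.5% of narrower peaks of similar pileup, so that wide regions stood below the last group and close to all narrower peaks. Each summit was given a single class, the first that applied. The order was protein-coding gene end, other gene end, inside a protein-coding gene, inside another gene, between genes. Summits at ends of other genes, with no protein-coding gene end within 1 kb, were 3.28% of all wide regions and 4.76% of all narrower peaks. Summits inside a protein-coding gene and beyond 1 kb from any gene end were found in 82 wide regions (15.8%) and 17.9% of narrower peaks. Further summits classed at gene ends were also inside the gene, as at Phlpp1 and Cebpb, so these are not the whole share inside genes.

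Space between genes held 6 wide regions (1.16%, interval 0.532 to 2.50), against 4.46% of narrower peaks (4.10 to 4.85) and 2.34% of narrower peaks of similar pileup. Insides of non-coding genes, counted only where no earlier class applied, held 0 of 518 wide regions, a count that allows a share of up to 0.736% (Wilson). They held 0.776% of narrower peaks and 0.486% of those of similar pileup. Some wide summits classed at gene ends also lay inside a non-coding gene, as at Otud1 (in Gm3230). Of the 105 wide regions not at a protein-coding gene end, 67 lay within 5 kb of one. An annotated start of a protein-coding transcript lay within 1 kb of the summit in 58 of them.

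**Figure D2:**
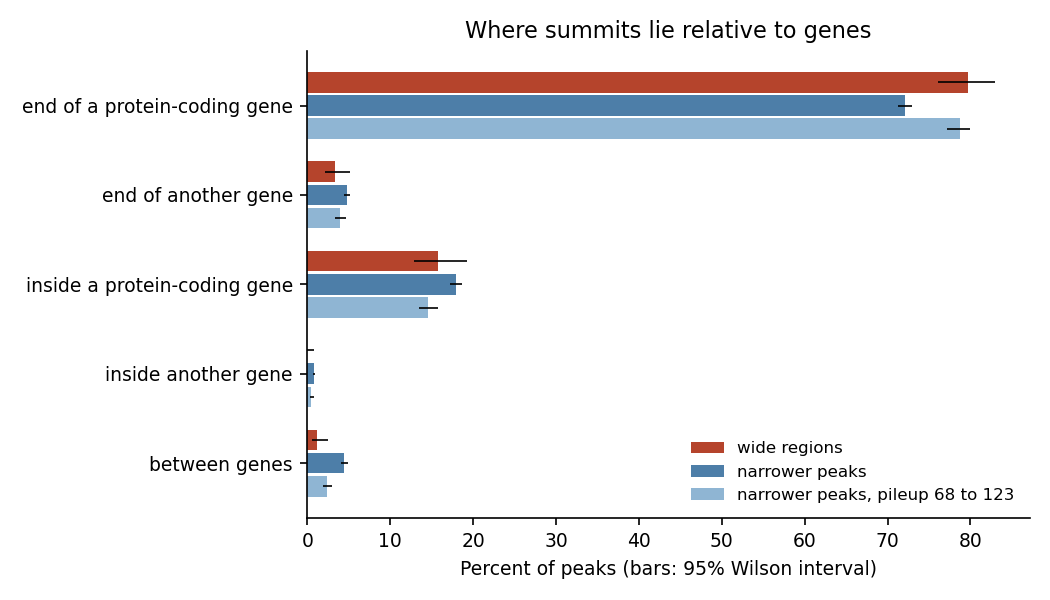
Percent of peaks whose summit fell in each class of location, for wide regions, narrower peaks and narrower peaks with a pileup of 68 to 123, with 95% Wilson intervals. Each summit is in the first class that applied, from the top down. Wide regions lie at protein-coding gene ends in 79.7% of cases and between genes in 1.16%, against 72.1% and 4.46% of narrower peaks.

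The share at protein-coding gene ends did not climb steadily with width. It was 59.2% of peaks of 217 to 300 bp, 82.5% at 701 to 800 bp, 79.4% of the 243 regions of 900 to 999 bp, 84.8% of the 197 regions of 1000 to 1199 bp and 67.9% of the 78 regions of 1200 bp or more. Within 5 kb of such an end the same 3 classes of wide regions held 90.9%, 95.4% and 91.0%. The background climbed through them, with medians of 11.2, 12.0 and 13.4.

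Distant regions were few. A summit farther than 10 kb from any protein-coding gene end occurred in 26 wide regions (5.02%), against 11.2% of narrower peaks and 7.63% of those of similar pileup. Of the 26, 19 lay inside a protein-coding gene and 12 had an annotated start within 1 kb, as at Zfp800 (1331 bp, fold 8.61) and Slc39a10, a zinc transporter (1180 bp, fold 10.2). The widest of the 26 were the region between genes on chromosome 9, a region on chromosome 11 (chr11:3101087-3102457, 1371 bp, fold 5.02) 30056 bp from Sfi1, and those in Zfp800, Zfhx3 and Epc1. The Zfhx3 region, in a gene for a large homeodomain factor, had 1311 bp and a fold of 4.82 and its summit was 256842 bp from the closest end. The region in Epc1 had 1306 bp, and its summit was at the end of the microRNA gene Mir1893.

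Gene ends shared by neighbours were about as common as in narrower peaks within 1 kb of the summit, and less common within 5 kb. Ends of 2 or more protein-coding genes lay within 1 kb of the summit in 52 wide regions (10.0%, interval 7.74 to 12.9), against 10.7% of narrower peaks (10.2 to 11.3). Within 5 kb the shares were 15.8% of wide regions (12.9 to 19.2) and 24.0% of narrower peaks (23.3 to 24.8). A region of 1162 bp on chromosome 4 had ends of 1110065P20Rik, Mtf1, the metal-responsive transcription factor, and Yrdc, an enzyme of tRNA modification. A region of 1035 bp on chromosome 8 had ends of Cox4i1, a cytochrome c oxidase subunit, Emc8, a subunit of the ER membrane protein complex, and Gm27021. Among regions with 2 genes, the widest were those of Mesd with Tlnrd1, Eif4e3 with Gpr27 (1409 bp) and Cggbp1 with Zfp654 (1320 bp).

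Whatever the class of location, ends of long non-coding RNA genes lay within 1 kb of the summit in 83 wide regions (16.0%). They lay there in 12.7% of narrower peaks and 13.4% of those of similar pileup, and no interval was computed. MicroRNA gene ends lay near 7 wide regions (1.35%), a small count, against 0.793% of narrower peaks and 0.699% of those of similar pileup. These were Mir193a (1006 bp), Mir3081 (969 bp), Mir1893 (1306 bp), Mir1901 (1025 bp), Mir207 (903 bp), Mir7238 (1116 bp) and Mir7666 (910 bp). All but that of Mir193a lay at an end of, or inside, a protein-coding gene.

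Neighbouring peaks were farther from wide regions. Between neighbouring summits the median gap was 54.9 kb for wide regions (interquartile range 22.8 to 118), against 28.3 kb for narrower peaks (7.14 to 73.4) and 34.9 kb for those of similar pileup. Another peak lay within 5 kb of 35 wide regions (6.76%), against 21.9% of narrower peaks and 17.4% of those of similar pileup. A wide region occupies space in which a narrower peak could have a neighbour, so neighbours nearer than 2 kb were also left out. The medians were then 60.5 kb for wide regions, 41.6 kb for narrower peaks and 45.3 kb for those of similar pileup. A neighbour at 2 to 20 kb occurred for 17.2% of wide regions, 27.6% of narrower peaks and 24.8% of those of similar pileup.

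The summit was often far from the middle of a wide region. It lay outside the central 50% of the width in 274 wide regions (52.9%), against 7.13% of narrower peaks and 6.17% of those of similar pileup. The median distance from summit to centre was 250.5 bp in wide regions and 34.0 bp in narrower peaks. The summit, like the width, comes from the same peak call.

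Annotated starts give the orientation of a region. A start of a protein-coding transcript lay within 1 kb of the summit in 377 wide regions (72.8%), against 65.4% of narrower peaks and 73.9% of those of similar pileup. Starts were matched for 80.3% of protein-coding genes, so these shares are lower than those of a full annotation would be. The summit stood a median of 19 bp upstream of the start in wide regions (−19.0, interquartile range −98.0 to 154) and 31.0 bp downstream in narrower peaks (−41.0 to 160), ranges that overlap almost fully. The start itself was covered by 347 of the 377 wide regions (92.0%) and by 76.0% of narrower peaks, a difference that width alone can make.

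Wide regions reached farther into the gene than away from it. From the start, those that covered it extended a median of 688 bp downstream (interquartile range 556 to 825) and 337 bp upstream (224 to 470). Narrower peaks extended 278 bp downstream (172 to 401) and 184 bp upstream (126 to 252). Both lengths together make up the width, which chose the regions, so the longer reach of wide regions is no finding. The downstream side made up a median of 67.6% of the width in wide regions, 60.5% in narrower peaks and 60.8% in those of similar pileup. It was the longer side in 283 wide regions (81.6%), against 68.2% of narrower peaks and 70.6% of those of similar pileup. At Fkbp5, for example, the region ran 239 bp upstream and 699 bp downstream, at Foxo1 140 and 950 bp, and at Otud1, a deubiquitinase gene, 232 and 1119 bp. Exceptions included Hnrnpa0, with 609 bp upstream and 604 bp downstream, and Pgrmc2, a progesterone receptor membrane component, with 603 and 555 bp. In others the upstream side was far longer. Nr2c2 had 1267 bp upstream and 49 bp downstream, and Fndc3b 942 and 163 bp.

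**Figure D3:**
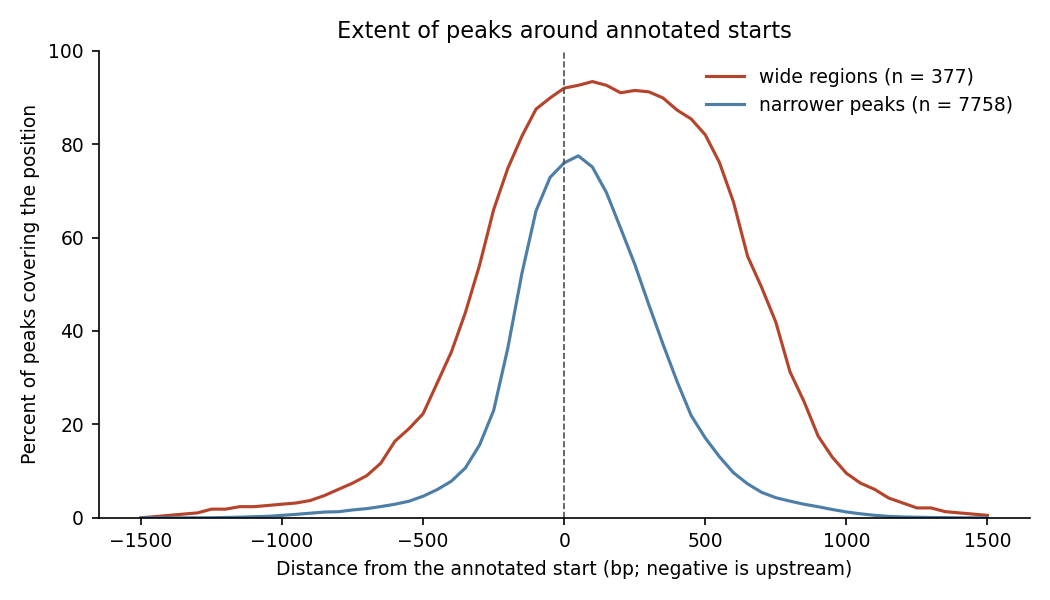
Percent of peaks covering each position around the annotated start (bp, negative upstream), for 377 wide regions and 7758 narrower peaks with a start within 1 kb of the summit. At 500 bp upstream the values are 22.3% for wide regions and 4.63% for narrower peaks, and at 500 bp downstream they are 82.0% and 17.1%. Width chose the wide regions, so their higher values on both sides are no finding.

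Promoters with a wide region were richer in GC and CpG than those with a narrower peak. The 300-base windows of 477 starts (410 genes) within 1 kb of a wide region's summit had a median GC content of 71.3% (interquartile range 66.3 to 75.0), against 64.3% (58.7 to 69.7) at 8832 starts with a narrower peak and 50.3% (43.7 to 56.3) at 11730 starts with no peak. The ratio of observed to expected CpG had a median of 0.918 (0.799 to 1.02) with a wide region, 0.820 (0.686 to 0.944) with a narrower peak and 0.268 with none. A ratio of 0.6 or more, a common mark of a CpG island, was found in 94.8% of windows with a wide region, 85.2% with a narrower peak and 18.3% with none. Narrower peaks of similar pileup stood between, with medians of 67.0% GC and 0.864 and with 91.7% of windows at 0.6 or more. The median number of CpG in a window was 33.0 with a wide region, 25.0 with a narrower peak, 28.0 with one of similar pileup and 5.00 with none, and the Mesd, Rrbp1, Ube2g1, Stt3b and Fkbp5 sequences printed above had 32 to 41.

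**Figure D4:**
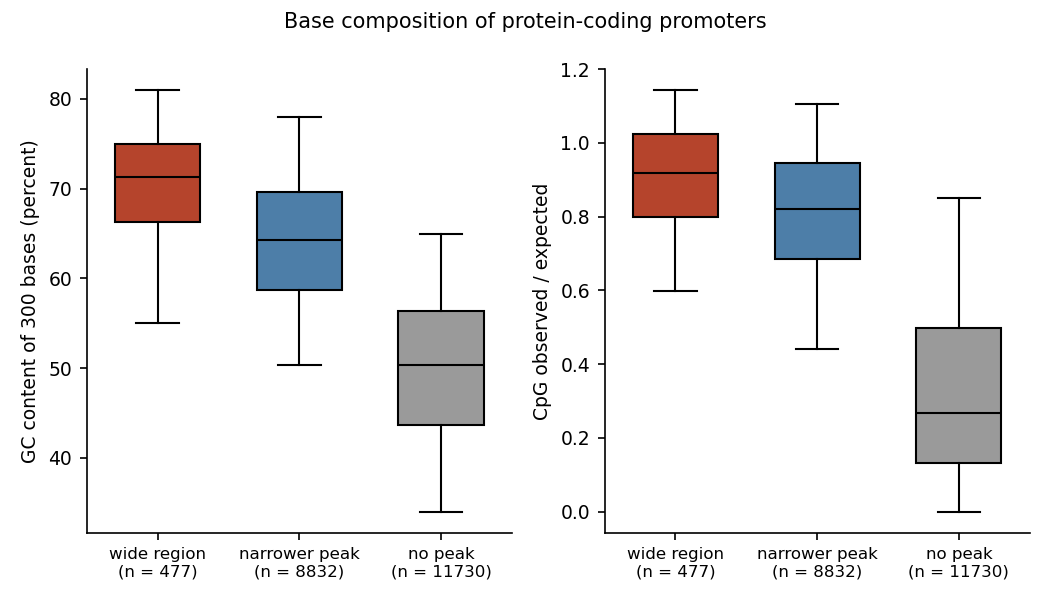
GC content in percent (left) and the ratio of observed to expected CpG (right) of 300-base promoter windows, for starts with a wide region (477), a narrower peak (8832) or no peak (11730). Boxes span the quartiles, lines are medians and whiskers the 5th to 95th percentiles. Median GC is 71.3% with a wide region, 64.3% with a narrower peak and 50.3% with none, and the boxes of the first pair overlap.

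Short motifs were searched as exact letters on both strands of the windows, and a match is a string of letters and not a bound site. GGGCGG (Sp and Klf factors) occurred in 83.6% of windows with a wide region (interval 80.1 to 86.7), 74.3% with a narrower peak, 80.0% with one of similar pileup, 24.4% with none and 46.7% of all windows. CCGGAAG (Ets factors) went the other way between the peak classes, with 11.1% in windows with a wide region (8.60 to 14.2), 19.0% with a narrower peak (18.2 to 19.9), 19.9% with one of similar pileup, 6.15% with none and 11.7% of all windows. At a minimum of 1000 bp the Ets share was 15% with a wide region (11.2 to 19.8) and 18.7% with a narrower peak, which lies within that interval. TGACGTCA (Creb factors) was in 1.89% of windows with a wide region (9 windows, interval 0.996 to 3.55), 3.52% with a narrower peak, which is inside that interval, 4.04% with one of similar pileup and 2.26% of all.

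For the remaining letters, too, the share with a narrower peak was inside the counting interval of the wide regions at the 900 bp minimum. CCAAT (NF-Y) was in 37.9% of windows with a wide region (33.7 to 42.4), 36.4% with a narrower peak, 32.4% with one of similar pileup (30.8 to 34.1) and 38.5% of all. CACGTG (E-box) was in 10.7% with a wide region, 10.9% with a narrower peak and 7.91% of all. TATAAA, the box bound by TBP, was in 4.19% with a wide region, 4.85% with a narrower peak, 18.9% with no peak and 12.7% of all. TGANTCA (AP-1) was in 2.94% with a wide region, 3.45% with a narrower peak, 9.91% with no peak and 7.04% of all. GCGCATGC (Nrf1) was in 4.82% with a wide region, 5.99% with a narrower peak and 3.54% of all. AAGATGGC (Yy1) was in 3.35% with a wide region, 4.68% with a narrower peak and 3.07% of all, and CTCGCGAG (Zbtb33) in 1.89% with a wide region, 2.33% with a narrower peak and 1.25% of all.

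Genes with a wide region were longer. The median length of the 467 protein-coding genes with a wide region within 1 kb of an end was 39.4 kb (interquartile range 13.9 to 87.4), against 25.0 kb for 8857 genes with narrower peaks alone (10.4 to 58.8), 29.4 kb for those with a narrower peak of similar pileup and 12.4 kb for 12195 genes with no peak. The 467 genes were 2.17% of the 21523 protein-coding genes tested. Any peak at an end was found for 43.3% of genes, and of these 5.01% had a wide region.

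Gene lists were read against those backgrounds of 2.17% of all genes and 5.01% of genes with a peak. Genes of RNA splicing and hnRNPs, the proteins that package nuclear RNA, held 7 of 40 members with a wide region, and 32 of the 40 had any peak. Sf1, the branch point binding protein, had 1253 bp (pileup 115, fold 7.40), and Hnrnpa0 1214 bp (pileup 123, fold 8.66). Hnrnpdl, whose region is shared with Enoph1, had 1146 bp, Hnrnpab 1013 bp and Hnrnpr 1009 bp. Tra2b, a splicing activator, had 916 bp (fold 5.43), and Ptbp1, a splicing repressor, 902 bp (fold 4.94).

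Klf, Sp and Egr zinc finger factors held 4 of 30 members, with 21 having any peak. Klf13 had 1099 bp (pileup 150, fold 7.16), Klf11 985 bp (pileup 172, fold 10.5), Klf9, a progesterone receptor partner in the uterus, 982 bp (pileup 69, fold 4.86), and Klf5, needed for implantation in mice, 946 bp (pileup 79, fold 6.94). Decidualization genes held 3 of 25, with 15 having any peak. Beside Cebpb these were Foxo1, a forkhead factor of decidual cells, with 1091 bp (pileup 84, fold 6.32), and Smad4, the common Smad, with 1019 bp (pileup 58, fold 5.75).

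Other lists had 1 or 2 such members. Immediate early and stress genes had 2 of 30, Fosl2, an AP-1 subunit (1137 bp), and Ier5 (1028 bp). Developmental regulators outside the Hox clusters had 2 of 40, Pbx3 (1115 bp) and Sox4 (913 bp). Genes of ER protein folding had 2 of 26, P4hb, a subunit of prolyl 4-hydroxylase and protein disulfide isomerase (1042 bp), and Dnajc3 (951 bp). Aminoacyl-tRNA synthetases had 2 of 37, Ears2 (999 bp, shared with Ubfd1) and Vars (924 bp, shared with D17H6S56E-5). Receptivity genes (26) and epithelial markers (24) each had Klf5 alone. Chromatin regulators had 1 of 44, Rnf2 of Polycomb complex 1 (1057 bp), and mitochondrial ribosomal proteins 1 of 78, Mrpl48 (1080 bp, shared with Rab6a).

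Of the 21 lists, 9 had no wide region. Cytosolic ribosomal protein genes had 0 of 83, with 57 having a peak, and ubiquitously expressed genes 0 of 24, with 18 having one. Beside backgrounds of 2.17% and 5.01%, counts of 0 in lists of these sizes are no result about their members, and the ubiquitous list had 1 at a minimum of 800 bp or within 5 kb. Hox genes had 0 of 39 with 13 having a peak, and 3 histone genes had none with 2 having a peak. Among markers of cell types of the uterus, 0 of 20 stromal, 0 of 18 smooth muscle, 0 of 17 endothelial and 0 of 20 immune genes had a wide region, while 6, 9, 3 and 2 of them had any peak. Genes of other organs had 0 of 24, with any peak at 3. No cell type was assigned to any region.

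**Figure D5:**
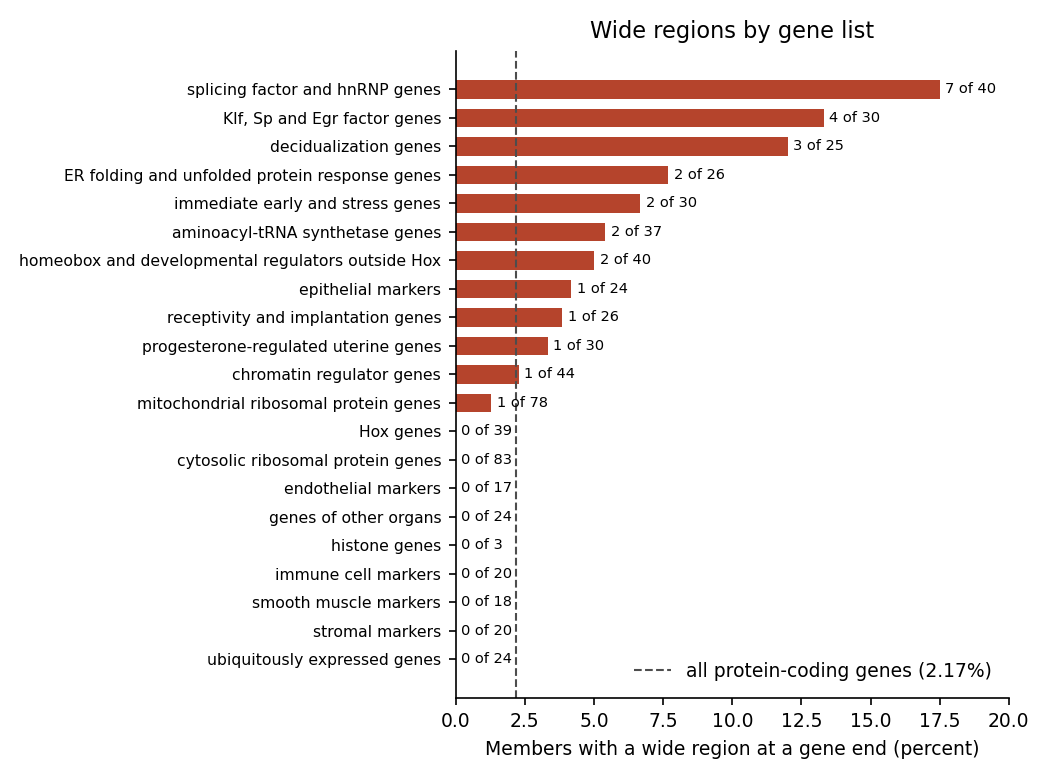
Percent of each list's members with a wide region within 1 kb of a gene end (bars, with counts), beside the share of all protein-coding genes (dashed line, 2.17%). The splicing factor and hnRNP list has 7 of 40 members and the cytosolic ribosomal protein list 0 of 83.

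Progesterone-regulated genes of the uterus had 1 of 30 members with a wide region, Fkbp5, while 16 had any peak. The Fkbp5 region was chr17:28485450-28486388, 939 bp wide with a pileup of 154 and a fold of 11.3. Of 10 uterine genes looked up whatever their values, Fkbp5 had a wide region, and the other 9, named next, had narrower peaks or none in the gene or within 10 kb. The widest peak was 544 bp at Pgr (chr9:8901604-8902147, fold 5.05), 533 bp at Gata2 (fold 6.85), 488 bp at Bmp2, a decidualization signal (fold 7.22), 452 bp at Nr2f2 (fold 3.47), 429 bp at Hoxa10 and Hoxa11, which share it (fold 3.65), 393 bp at Lif, the cytokine needed for implantation (fold 8.99), and 323 bp at Hand2 (fold 3.86). Esr1, the estrogen receptor, had no peak.

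Further lists were composed after the genes with wide regions had been seen, so their counts only describe those genes. Among signalling genes, the exchange factors Sos1 (915 bp) and Sos2 (981 bp), the adaptors Gab1 (1020 bp) and Gab2 (995 bp), and the kinases Rock1 (995 bp) and Rock2 (969 bp) had wide regions. Insulin and PI3-kinase genes held 7 of 27, including Irs2, an insulin receptor substrate (1007 bp), and Pik3r1, a regulatory subunit (1080 bp). Wnt pathway genes held 6 of 31, including the receptors Fzd7 (982 bp) and Fzd1 (941 bp) and Notum, which inactivates Wnt ligands (1025 bp). The wider hnRNP family held 7 of 21.

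Among clock genes, Nr1d2, a repressor of the clock, had 1223 bp (fold 8.70), Cry1 978 bp (fold 8.10) and Clock 934 bp (fold 7.41). TGF-beta and BMP receptors and Smads held 3 of 20, with a peak at all 20. Smad2 had 1249 bp (fold 7.98) and Tgfbr1 1028 bp (fold 8.50). E2 enzymes held 5 of 37 and DnaJ co-chaperones 4 of 45. Cebp genes held 2 of 6, with Cebpd at 1067 bp (pileup 104, fold 7.92), and histone genes under their current symbols 1 of 87, the variant gene Macroh2a1 (918 bp, fold 10.6).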

How the data were processed

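Beside the 3 FAIRE samples of whole uterus there was 1 deposited peak list, which names no sample. Per the submitters' processing notes, FastQC, Bowtie2, HOMER and MACS2 were used, on build GRCm38.p5. How peaks were thresholded, and whether an input or pooled libraries were used, is not stated in these sources. The authors' list, per the file headers, gives each peak's summit pileup (a coverage signal), its fold enrichment (a ratio) and its −log10 q-value. These are the authors' values, used only within the list. The labels' protocols give 1% formaldehyde for 9 min, 100 mg of tissue and fragments of 300 bp on average.

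Summits were set against RefSeq genes (GRCm38.p6, names and neighbourhood alone), leaving out 340 genes that carry coordinates of scaffolds (under 3 Mb). The 21045 annotated starts, with 300 bases each, came from a RefSeq promoter table matched to 17274 of 21523 protein-coding genes, and starts on chromosome 18 were not used here. Shares carry 95% Wilson intervals, which cover counting only. Peaks are not replicates, so no test was made. Python 3.11.15, pandas 2.3.3, numpy 2.4.6 and scipy 1.17.1 were used, and the counting steps were tested on simulated data.

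The regions and gene lists were chosen with earlier results of these data known. Genes were named by rule: the 15 widest, the highest and lowest fold, those nearest the limits, the most distant, those with the most genes, list members with a wide region (up to 5 per list, exceeded for the splicing list) and 10 uterine genes. Further genes were picked with their values in view, and some genes are not reported here. The alternatives changed the width minimum, background limit, window, summit position, fold minimum, pileup match and gene table.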

Additional observations from a re-analysis of the deposited data

How the results depend on the processing

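The sign of differences that lay within counting error turned under some alternatives. Near 2 or more genes lay 10.9% of wide regions and 10.7% of narrower peaks at 800 bp, and 11.3% of wide regions and 10.7% of narrower peaks at 1000 bp. Windows with CCAAT were 35.4% with a wide region and 36.6% with a narrower peak at 800 bp, those with CTCGCGAG 2.73% with a wide region and 2.26% with a narrower peak at 800 bp, those with CACGTG 11.0% with a wide region and 10.9% with a narrower peak at 800 bp, and those with TATAAA 5.38% with a wide region and 4.80% with a narrower peak at 1000 bp. In narrower peaks of similar pileup TATAAA (4.04%) and TGANTCA (2.71%) were also below the wide regions, and TATAAA was in 5.41% with a wide region and 5.16% with a narrower peak for genes with 1 annotated start, chosen after seeing the data. CCGGAAG came within counting error at 1000 bp (15% with a wide region, 18.7% with a narrower peak). The number of wide regions was 963 at 800 bp or more, 275 at 1000 bp or more and 96 at a background of 10 or less. At a protein-coding gene end lay 63.7% of wide regions and 62.3% of narrower peaks within 500 bp, 92.7% of wide regions and 84.9% of narrower peaks within 5 kb, and 84.6% of wide regions and 74.1% of narrower peaks by overlap of any base. By annotated starts, chosen after seeing the data, they were 72.8% of wide regions and 65.4% of narrower peaks. Narrower peaks had 78.5% with at least the median fold and 78.7% at similar pileup. Near 2 or more genes lay 6.37% of wide regions and 7.40% of narrower peaks within 500 bp, and 15.8% of wide regions and 24.0% of narrower peaks within 5 kb. Among narrower peaks the share was 11.7% by overlap and 11.9% at similar pileup. Genes with a wide region were 4.10% at 800 bp, 1.18% at 1000 bp, 1.69% within 500 bp and 2.63% within 5 kb. The CpG ratio with a narrower peak was 0.816 at 800 bp, 0.830 within 500 bp and 0.864 at similar pileup, where GC content was 67.0%. Between peaks of at least the median fold the nearest neighbour lay at 96.3 kb for wide regions and 74.2 kb for narrower peaks. With neighbours at least 2 kb away, also chosen after seeing the data, it lay at 41.6 kb for narrower peaks. Members with a wide region ranged from 4 to 10 in the splicing list, 1 to 4 in the Klf list, 3 to 4 in the decidualization list and 0 to 0 in the cytosolic ribosomal list.

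No paired analysis was possible because the list names no sample, and for the same reason no mouse was left out in turn. Depth, scaling and the input are unknown, so the pileup gives no counts. Width was set by the authors' peak call, which was not repeated here.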

Other observations

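Wide regions were 4.17% of all peaks, and their shares on single chromosomes are given as values with no test or interval. The lowest were on the X chromosome, with 5 wide regions among 254 peaks (1.97%), and chromosome 15, with 12 of 530 (2.26%). The highest was on chromosome 1, with 41 of 708 (5.79%). Starts on both strands lay within 1 kb of the summit in 31 wide regions (5.98%), against 5.80% of narrower peaks.

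Some single genes outside the lists are named here, and they stand for no group. Hspd1 and Hspe1, the paired chaperonin genes of mitochondria, shared a region of 922 bp (pileup 159, fold 11.6). Nfe2l2, the factor of the oxidative stress response, had 1166 bp (pileup 69, fold 6.12), and Nrf1, a factor of mitochondrial genes, 1061 bp (pileup 148, fold 9.72). Nrip1, a corepressor of nuclear receptors, had 1276 bp (pileup 132, fold 8.68), and Odc1, the first enzyme of polyamine synthesis, 944 bp (pileup 74, fold 6.61). They were picked with their values in view.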
